A study of Homo sapiens with 2 samples.

Results

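Expression of the genes that make, break down and regulate polyamines was examined in MDA-MB-231 cells after siRNA against KMO. The set comprised 10 genes, chosen by name with their differences between these same arrays already known: the synthesis genes ODC1, AMD1, SRM and SMS, the breakdown genes SAT1, SMOX and PAOX, and the antizyme system genes OAZ1, OAZ2 and AZIN1. They were represented by 22 probe sets assigned to 1 gene each, of 54675 probe sets on the array, and by 10 of 19775 named genes. Because the choice of genes used the contrast described here, every value below is a description and none was tested.

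Polyamines (putrescine, spermidine and spermine) are small positively charged molecules that bind nucleic acids and are required for growth. Ornithine decarboxylase makes putrescine, and spermidine and spermine are built from it by adding aminopropyl groups taken from decarboxylated S-adenosylmethionine. Acetylation by spermidine/spermine acetyltransferase starts their export and breakdown, and antizymes bind ornithine decarboxylase and send it to the proteasome. Tumours, breast cancers among them, commonly hold more polyamines than normal tissue.

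The knockdown group, named siKMO below, was MDA-MB-231 cells transfected for 48 h with siRNA against KMO, which encodes kynurenine 3-monooxygenase of tryptophan breakdown. The control group, siCon, was the same line transfected for 48 h with a control siRNA. MDA-MB-231 is an established triple-negative breast cancer line, and both groups were grown in serum-containing medium. Each group was 1 Affymetrix U133 Plus 2.0 array, so no value has a replicate, an error or a p-value. The array names in the labels carry shLUC and shK421, strings that usually stand for hairpin constructs, so the construct was not settled and the titles were followed.

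Levels are log2 values from robust multi-array averaging (RMA), differences are siKMO minus siCon on that log2 scale, and a gene is represented by its probe set with the highest mean level. A gene was counted as measured at a mean level of at least 6, which held for 8997 genes, with a median difference of 0.04. KMO itself did not check the knockdown: its 3 probe sets stood at 2.92, 2.51 and 2.35 on the siKMO array, against 2.95, 2.37 and 2.11 on the siCon array. Markers of unrelated tissues (9 genes) ranged from 2.30 to 5.71 on the siKMO array and from 2.53 to 5.75 on the siCon array. Of markers usual for the line, VIM, CD44, CAV1, AXL and MSN all stood above 11 on both arrays, while ESR1 and PGR were under 6. CDH1, CD24 and EPCAM are epithelial genes that this mesenchymal line is known to express weakly. They stood at 8.62, 9.45 and 7.85 on the siKMO array and at 10.54, 10.46 and 8.75 on the siCon array. All of these levels are above those of the unrelated tissue markers, and the differences were -1.92, -1.01 and -0.90. What lies behind these levels, and their part in the results below, was not tested. ERBB2 stood at 7.37 on the siKMO array and 7.44 on the siCon array. Spike-in controls differed between the arrays by at most 0.17 for 18 hybridisation probe sets and 0.22 for 24 poly-A probe sets, which reflects hybridisation and labelling and not the spread between cultures.

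The 4 synthesis genes were all higher in siKMO cells, where 54.8% of all measured genes were higher. The breakdown gene SAT1 was lower, where 44.1% were, and the weakly detected oxidases SMOX and PAOX had no settled difference. Within the set, the largest differences on each side were those of SRM, spermidine synthase (0.98), and SAT1, the acetyltransferase (-1.39). The antizymes and the antizyme inhibitor were lower by smaller amounts. For OAZ1, for OAZ2 at its brightest probe set and for AZIN1 at its second brightest, these were under the widest spike-in difference. The 250 bases before the annotated starts of SAT1, SRM and ODC1 are shown, SAT1 and SRM for their differences and ODC1 because it opens the pathway. They are RefSeq reference sequence of build GRCh38.p14, read 5′ to 3′ on the strand of the gene. Capitals mark E-boxes (CACGTG, the site that MYC with MAX binds), CCAAT boxes and GC boxes (GGGCGG, the site of SP1), each searched on both strands.
SAT1, chrX:23782923-23783172, plus strand: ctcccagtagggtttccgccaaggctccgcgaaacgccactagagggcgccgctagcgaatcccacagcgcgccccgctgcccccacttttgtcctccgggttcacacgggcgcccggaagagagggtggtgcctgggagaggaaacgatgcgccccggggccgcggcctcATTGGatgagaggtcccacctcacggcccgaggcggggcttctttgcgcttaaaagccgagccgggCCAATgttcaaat
SRM, chr1:11060019-11060268, minus strand: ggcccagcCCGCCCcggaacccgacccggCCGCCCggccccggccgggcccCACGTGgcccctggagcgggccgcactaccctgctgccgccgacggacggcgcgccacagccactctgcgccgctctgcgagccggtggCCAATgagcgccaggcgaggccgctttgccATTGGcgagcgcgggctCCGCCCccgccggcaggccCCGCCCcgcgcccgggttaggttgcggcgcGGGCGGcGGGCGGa
ODC1, chr2:10448328-10448577, minus strand: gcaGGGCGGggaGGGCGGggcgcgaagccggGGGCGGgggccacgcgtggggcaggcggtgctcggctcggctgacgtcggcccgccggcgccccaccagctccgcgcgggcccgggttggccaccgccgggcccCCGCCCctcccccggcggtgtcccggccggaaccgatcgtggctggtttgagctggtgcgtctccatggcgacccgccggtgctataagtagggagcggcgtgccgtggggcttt

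The SRM window held 1 E-box, starting 199 bases before the start, along with 2 CCAAT boxes and 6 GC boxes. The ODC1 window held 4 GC boxes and neither other motif, but the window before a further annotated ODC1 start, within the gene, held an E-box 29 bases before that start. The SAT1 window held 2 CCAAT boxes, no E-box and no GC box. Among all 35116 such windows of RefSeq genes, an E-box was found in 6.34%, a CCAAT box in 32% and a GC box in 42.6%. AZIN1 was left out of the search beforehand, and no window was found for SMOX or PAOX. Windows were thus examined for 7 of the 10 genes (SRM, ODC1, AMD1, OAZ2, OAZ1, SMS and SAT1, with 10 starts in all). An E-box was present for 2 of these genes, a CCAAT box for 5 and a GC box for 6. These counts take a match in any window of a gene, so they are not comparable with the shares of single windows above. The median GC content was 70.2% over the 10 windows and 58% over all windows. Neighbouring AMD1 starts gave nearly the same window, so the 10 windows are not all separate observations. The TATA box (TATAAA), the cAMP response element (TGACGTCA) and the core of the antioxidant response element (TGACNNNGC) were also searched on both strands. They were found in 0 of the 10 windows of these genes and in 10.7%, 1.65% and 10.9% of all windows. Only these exact strings were searched. Variants such as TATAAG, which the ODC1 window shown holds, were not counted, so 0 matches do not mean that a TATA box is absent. A match describes letters and not binding.

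**Figure D1:**
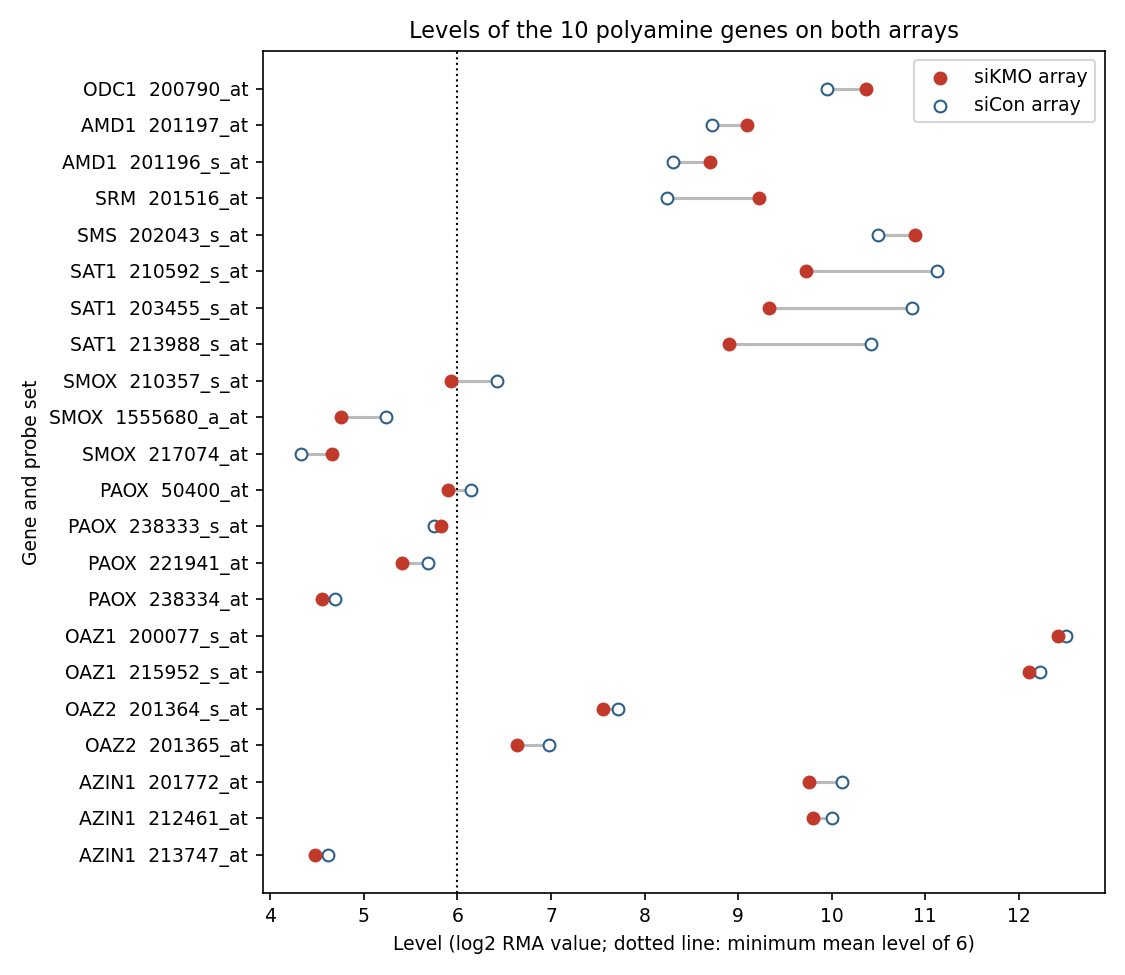
Level of each probe set of the 10 genes (log2 RMA value) on the siKMO array (filled red) and the siCon array (open blue), with a dotted line at the minimum mean level of 6. The red points lie to the right of the blue ones for all 5 probe sets of the synthesis genes and to the left for all 3 of SAT1; levels of different probe sets are not comparable with each other.

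Synthesis begins with ODC1, ornithine decarboxylase, which converts ornithine to putrescine. Its only probe set stood at 10.37 in siKMO cells and 9.95 in siCon cells, a difference of 0.42 or a 1.34-fold higher level. Of the measured genes, 11.5% had a difference at least as high. AMD1, S-adenosylmethionine decarboxylase, makes the aminopropyl donor for both later steps. Its probe sets stood at 9.09 and 8.70 in siKMO cells, against 8.72 and 8.30 in siCon cells. Both were thus higher in siKMO cells, by 0.37 and 0.40, and they differed from each other by 0.03. A difference at least as high as the 0.37 was found for 14.1% of measured genes.

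SRM transfers the first aminopropyl group and turns putrescine into spermidine. The level of SRM was 9.22 in siKMO cells and 8.24 in siCon cells, a 1.97-fold higher level, which placed the gene at position 83 from the highest of 8997. SRM thus lay just under 2-fold. SMS, spermine synthase, which adds the second aminopropyl group, stood at 10.89 in siKMO cells and 10.50 in siCon cells. This was a 1.31-fold higher level, and 12.9% of measured genes had a difference at least as high. The median difference of the 4 synthesis genes was 0.41, and 3 of them lay within 0.37 to 0.42, with SRM apart from them. ODC1, SRM and SMS had 1 probe set each, so no further probe set bears on their values. The RefSeq table names pseudogenes after AMD1 (4), SRM (3) and SMS (1), and whether their transcripts reach these probe sets was not tested.

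SAT1 attaches acetyl groups to spermidine and spermine, the rate-limiting step of their breakdown. Its 3 probe sets stood at 9.73, 9.33 and 8.91 in siKMO cells, against 11.12, 10.86 and 10.42 in siCon cells. All 3 were lower in siKMO cells, by 2.63-fold, 2.90-fold and 2.86-fold in that order, and their log2 differences spanned 0.14. By the first of them SAT1 was at position 36 from the lowest of the 8997 measured genes. The span is close to the median span of 0.15 between probe sets of a gene over the 3777 genes with at least 2 measured probe sets. Probe sets of a gene read the same RNA and do not repeat the culture. A further probe set that the annotation assigns to SAT1 and another gene was left out and stood at 3.45 in siKMO cells and 3.76 in siCon cells. A bulk level cannot tell apart less SAT1 RNA in each cell and fewer cells that carry it.

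The oxidases were weakly detected. SMOX, spermine oxidase, which returns spermine to spermidine and releases hydrogen peroxide, had its brightest probe set at 5.93 in siKMO cells and 6.42 in siCon cells. With the siKMO level taken as 6, the SMOX difference was -0.42. Its other probe sets stood at 4.75 and 4.66 in siKMO cells, against 5.24 and 4.33 in siCon cells, so the weakest of them had the opposite sign to the others at levels where unrelated tissue markers also lie. PAOX, the peroxisomal oxidase that acts on acetylated polyamines, had its brightest probe set at 5.90 in siKMO cells and 6.14 in siCon cells. With the siKMO level taken as 6, the PAOX difference was -0.14. The other 3 PAOX probe sets were under 6 on both arrays, with differences of 0.07, -0.27 and -0.14. Both oxidases counted as measured only through their siCon level, and neither had a settled difference.

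**Figure D2:**
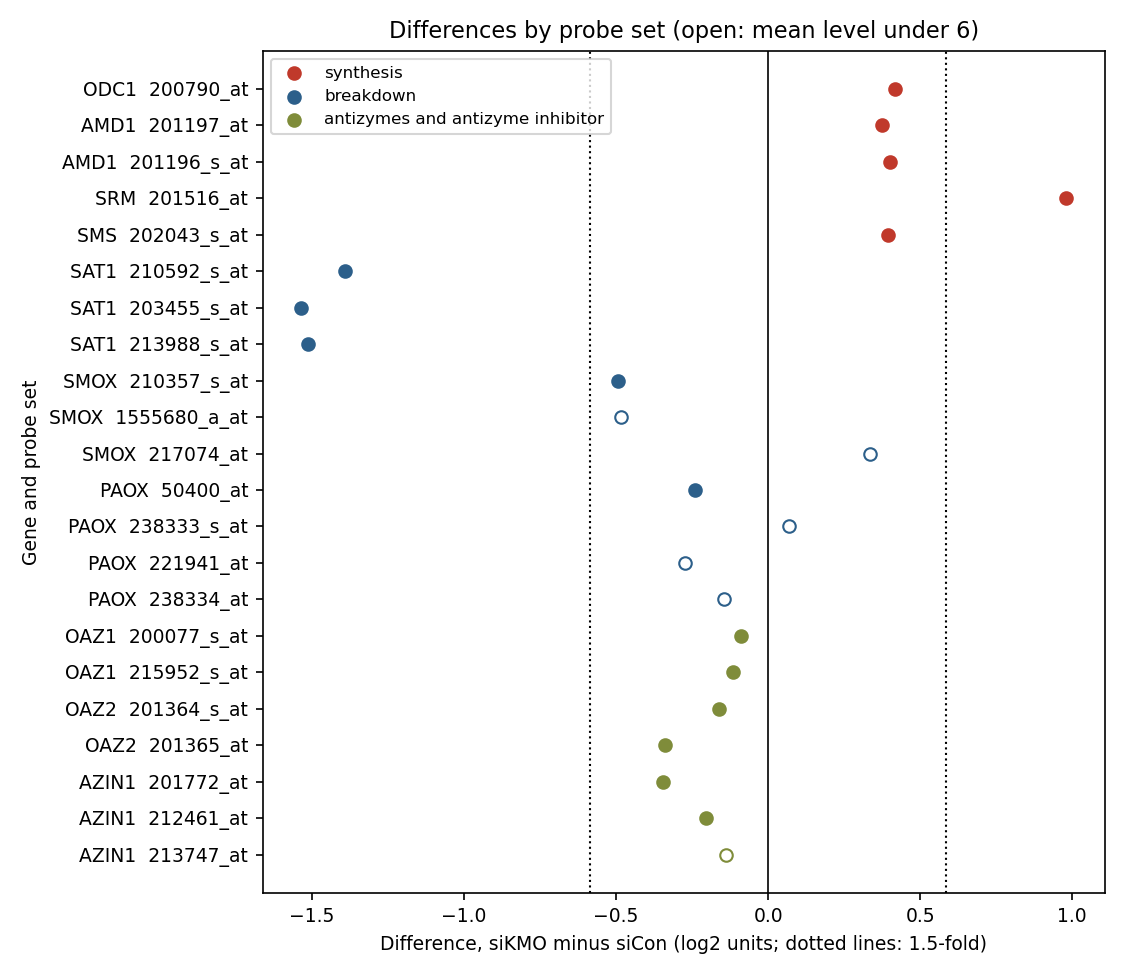
Difference of each probe set, siKMO minus siCon, in log2 units, coloured by role, with open circles where the mean level was under 6 and dotted lines at 1.5-fold. SAT1 lies between -1.54 and -1.39 and SRM at 0.98, beyond the lines, and all other filled points lie inside them.

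The antizyme system controls the ODC1 protein. OAZ1, the main antizyme, whose translation needs a ribosomal frameshift that polyamines promote, stood at 12.42 and 12.11 in siKMO cells, against 12.51 and 12.22 in siCon cells. These differences, -0.09 and -0.12, were smaller than the widest spike-in difference of 0.22. OAZ2, a second antizyme, had values of 7.55 and 6.64 in siKMO cells and of 7.72 and 6.98 in siCon cells. Its differences of -0.16 and -0.34 lay on either side of that spike-in value. AZIN1 is an ODC1 relative without enzyme activity that holds antizyme away from ODC1. With its brighter probe sets it stood at 9.76 and 9.80 in siKMO cells, against 10.11 and 10.01 in siCon cells. The AZIN1 differences of -0.35 and -0.20 also lay on either side of that spike-in value. Its weakest probe set, at 4.48 in siKMO cells and 4.62 in siCon cells, was under 6 on both arrays. The 6 measured probe sets of OAZ1, OAZ2 and AZIN1 were all lower in siKMO cells, none by 1.5-fold. Among all measured genes, 44.1% were lower.

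Counted over the set, 1 of 10 genes (SRM) was higher and 1 of 10 (SAT1) lower by at least 1.5-fold, where 5.19% of the 8997 measured genes were higher and 5.41% lower by that fold. At 2-fold, SAT1 was the only gene called, where 0.856% of measured genes were higher and 1.39% lower. At 1.2-fold, a threshold chosen after the values were seen, ODC1, AMD1, SRM and SMS were higher and SAT1, AZIN1 and the unsettled SMOX lower, where 23.6% of measured genes were higher and 17.3% lower. Since the genes were chosen on this contrast, nothing is read from these shares. The median of the 10 differences was -0.13, beside 0.04 over all measured genes, and its sign depended on whether the weak oxidases were kept: with a minimum mean level of 7 it was 0.14 over 8 genes. By role, the medians were 0.41 for synthesis and -0.16 for the antizyme system, and none is given for breakdown, where SAT1 alone reached 6 on both arrays.

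**Figure D3:**
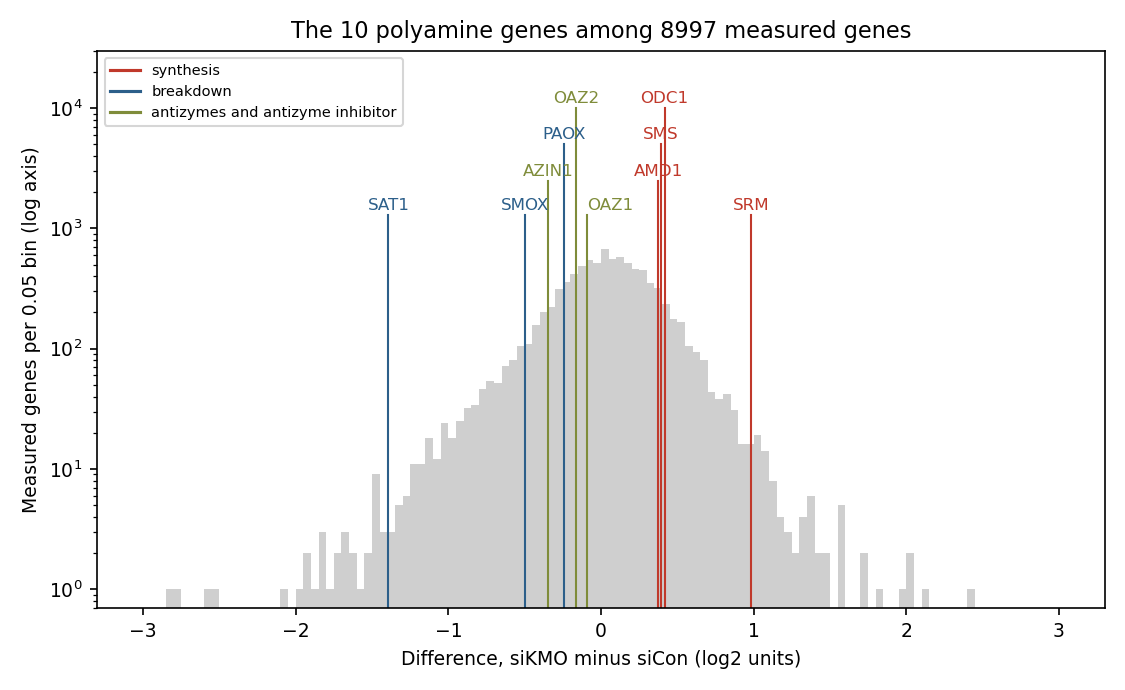
Number of measured genes (log axis) by difference, siKMO minus siCon, in bins of 0.05 log2 units, with the 10 polyamine genes drawn as lines coloured by role. SAT1 lies in the low tail and SRM in the high tail, and the other 8 genes lie between -0.49 and 0.42 in the body of the distribution.

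Ratios between the genes within an array do not depend on a shift shared by all genes. The SRM to SAT1 ratio was 5.18-fold higher in siKMO cells, a log2 change of 2.37, and ran from 2.37 to 2.52 over the 3 pairs of probe sets. The ODC1 to SAT1, SMS to SAT1 and AMD1 to SAT1 ratios were higher by 1.81, 1.79 and 1.77 on the log2 scale, that is 3.51-fold, 3.45-fold and 3.40-fold. Within synthesis, the SRM to ODC1 and SRM to SMS ratios were higher by 0.56 and 0.59 on the log2 scale. The ODC1 to OAZ1 ratio changed by 0.51 (0.51 to 0.53 over the probe sets), ODC1 to OAZ2 by 0.58 (0.58 to 0.76) and ODC1 to AZIN1 by 0.76 (0.62 to 0.76). The ratio of AZIN1 to OAZ1, inhibitor over antizyme, changed by -0.26, and over 4 pairs of probe sets by -0.26 to -0.09. These ratios show unequal differences between RNAs and do not give amounts of protein or of polyamines, which were not measured. The frameshift of OAZ1 and the protein turnover of ODC1 are likewise outside an RNA level.

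**Figure D4:**
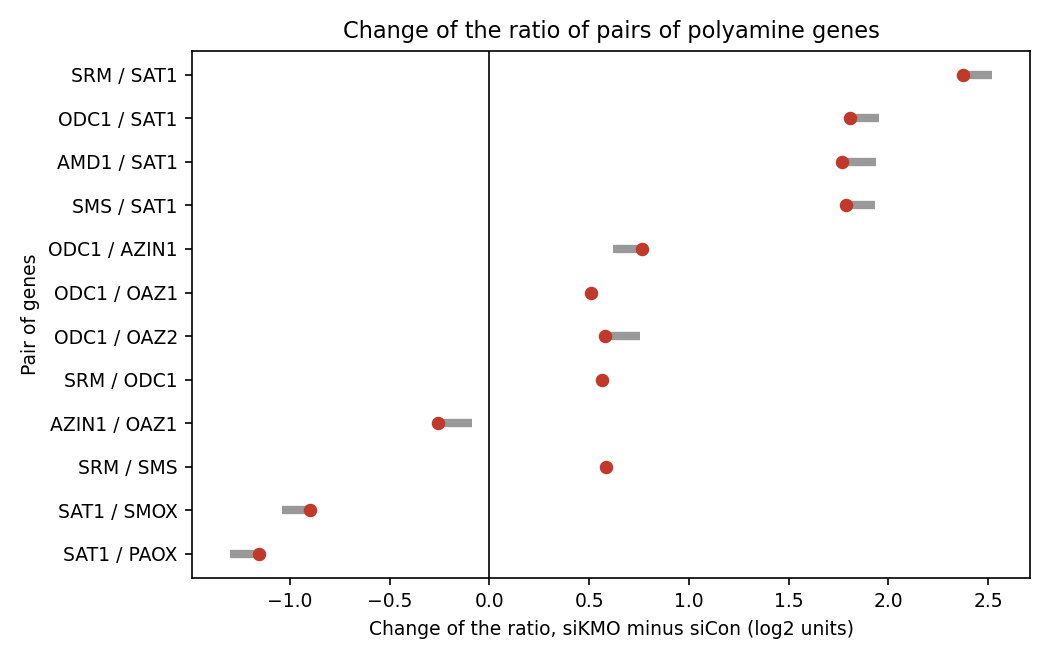
Change of the ratio of pairs of polyamine genes, siKMO minus siCon, in log2 units, with red points from the brightest probe set of each gene and grey bars for the range over all pairs of measured probe sets. The ratios over SAT1 lie between 1.77 and 2.52 over these probe sets, and the AZIN1 to OAZ1 ratio lies between -0.26 and -0.09.

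Genes that feed, use or move polyamines, close relatives of the set and the MYC network were compared through 6 lists. Of their 52 genes, 48 had a probe set and 33 were measured, of which 1 was higher and 3 lower by at least 1.5-fold, beside the 5.19% and 5.41% given above for all measured genes. Of the 3 lower, SLC18B1 was under 6 on the siKMO array and falls short of 1.5-fold with that level taken as 6. The median difference of the 33 was 0.09. Counts of higher and lower genes below stand beside 54.8% higher and 44.1% lower among all measured genes. Among relatives, AZIN2, a second antizyme inhibitor, stood at 5.80 in siKMO cells and 6.21 in siCon cells. It thus counted as measured only through its siCon level. SAT2, a SAT1 homologue, stood at 8.97 in siKMO cells and 9.16 in siCon cells. SAT2 thus differed by -0.18. Spermidine also serves to make hypusine on the translation factor EIF5A. EIF5A stood at 11.66 in siKMO cells and 11.23 in siCon cells, and its 3 probe sets were higher by 0.32 to 0.43. DHPS, which performs the first step of hypusine synthesis, was lower by 0.21 to 0.37 over its 3 probe sets, and the EIF5A2 paralogue differed by -0.04, with -0.23 to -0.04 over its 3 probe sets.

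By the brightest probe set of each, measured genes of ornithine supply and of the methionine cycle and salvage differed by less than 1.5-fold, except ADI1. Among 6 measured genes of arginine and ornithine supply, 4 were higher and 2 lower, none by 1.5-fold, with a median of 0.25 (-0.05 over all 12 genes without a minimum level). ASL, which releases arginine from argininosuccinate, differed by 0.52 (7.89 in siKMO cells, 7.37 in siCon cells), and ASS1, which makes argininosuccinate, by -0.51 (8.62 in siKMO cells, 9.13 in siCon cells). The arginine and ornithine carrier SLC7A1 was higher by 0.43, with 0.63 from its other measured probe set. In the methionine cycle and the salvage of methylthioadenosine, the by-product of spermidine and spermine synthesis, 7 of 9 measured genes were higher and 2 lower, with a median of 0.30. The salvage dioxygenase ADI1 stood at 10.63 in siKMO cells and 9.97 in siCon cells, a 1.58-fold higher level, and was higher by 0.92 with its other measured probe set. MTRR and MTR, which regenerate methionine, differed by 0.35 and 0.34, although the other MTR probe set differed by -0.01.

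Of 6 measured genes of polyamine and organic cation transport, 2 were higher, 3 lower and ATP13A2 was identical on both arrays. ATP13A2 stood at 6.01, just above the minimum, and 9.46% of all probe sets had identical values on the arrays. SLC18B1, a vesicular polyamine carrier, stood at 5.77 in siKMO cells and 6.44 in siCon cells, a difference of -0.44 with the siKMO level taken as 6. GPC1, a heparan sulfate proteoglycan of polyamine uptake, was lower by 0.41, and ATP13A3, a polyamine-transporting ATPase, was higher by 0.30. In the MYC network, which controls ODC1 transcription, 3 of 7 measured genes were higher and 4 lower. MXI1, a MYC antagonist, stood at 8.37 in siKMO cells and 9.52 in siCon cells, and MXD1, another, at 6.13 in siKMO cells and 6.73 in siCon cells, differences of -1.15 and -0.60. MNT, a further repressor that pairs with MAX, differed by -0.29. MYC differed by 0.11 and MAX by 0.27, with 0.27 to 0.56 over 3 MAX probe sets, both named after their values were seen. Whether any of these genes bears on ODC1 or SRM was not tested.

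**Figure D5:**
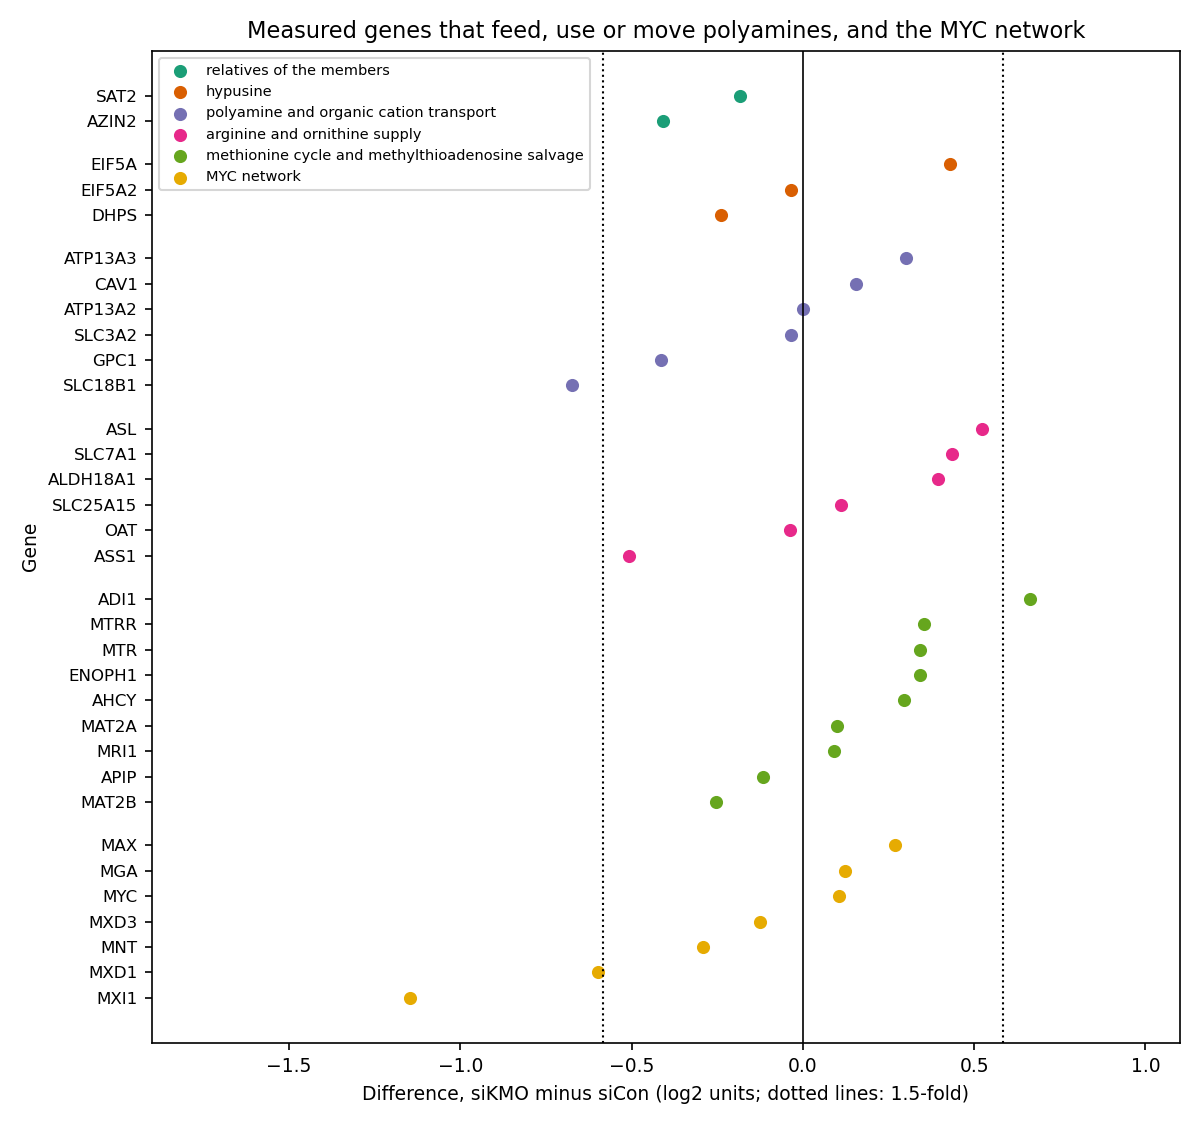
Differences, siKMO minus siCon, in log2 units, of the 33 measured genes of the 6 lists, grouped and coloured by list, with dotted lines at 1.5-fold. ADI1 lies beyond the upper line, SLC18B1, MXD1 and MXI1 lie beyond the lower line, and 29 genes lie between them.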

How the data were processed

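Per the labels, the authors estimated the deposited log2 values with the robust multi-array average. Affymetrix Expression Console is credited in the submitters' processing notes. The sources used here give neither its version nor which arrays were normalized as a batch. RMA subtracts background, equalises the distributions of the arrays and summarises probes, so it removes a shift shared by all transcripts, compresses weak differences and gives no detection call. Medians were 4.43 on the siKMO array and 4.44 on the siCon array. Arrays carry no read depth, and their number (2) limits the precision.

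Of 54675 probe sets, 41091 had 1 gene in the platform annotation, with symbols updated by gene identifier through RefSeq (GRCh38.p14). Differences, ranks and counts were computed with Python 3.11.15, numpy 2.4.6 and pandas 2.3.3. Only the step from probe sets to gene differences was tested on simulated data, with planted shifts. No test between groups was possible with 1 array each. Members and lists were chosen with earlier results of these data known. All 10 members are named, and from each other list the measured genes past 1.5-fold or, where there are fewer than 3, the 3 with the largest absolute difference. Alternatives were the level minimum, the summary over probe sets, probe sets with shared targets left out, renormalization, centring and the fold.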

Additional observations from a re-analysis of the deposited data

How the results depend on the processing

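None of the 10 genes changed sign under any alternative that gave a value, an outcome largely fixed beforehand. A level minimum can drop a gene but not alter its value. ODC1, SRM and SMS, with 1 probe set each, could move only through renormalization or centring. SMOX and PAOX gave no value with probe sets averaged. SAT1 ran from -1.48 to -1.39, SRM from 0.94 to 0.98, ODC1 from 0.38 to 0.42 and AMD1 from 0.33 to 0.39. SMS ran from 0.35 to 0.39, AZIN1 from -0.39 to -0.23 and OAZ2 from -0.34 to -0.16. The median of the set was -0.13 and became 0.14 at a minimum mean level of 7, 0.14 with each gene averaged over its probe sets (8 genes in both cases) and 0.067 over 6 genes once probe sets with an _x_at or _s_at ending were dropped, since fewer genes then counted. Without those probe sets 0 genes were lower by 1.5-fold, because all SAT1 probe sets are of that kind. The count of higher genes was 0 at 2-fold, and counts at 1.2-fold, added after seeing the data, were 4 higher and 3 lower. Of the medians of the other lists, 24 moved by less than the typical SD between probe sets of a gene (0.09) and 12 by more. The count of transport genes lower by 1.5-fold was 1 and became 0 at a minimum of 7, that of the MYC network was 2 and became 1 there and with probe sets averaged, and that of higher genes of arginine and ornithine supply was 0 and became 1 (SLC7A1) without the _x_at and _s_at sets and 1 (AGMAT) without a minimum, where 1 (ARG2) was also lower. No paired analysis was possible because each group had 1 array, and leaving out an array leaves no difference.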

Other observations

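Some genes around the pathway lay under the minimum mean level of 6 and are given as values. MTAP, the phosphorylase that opens methylthioadenosine salvage, stood between 1.74 and 4.23 on the siKMO array and between 1.74 and 4.46 on the siCon array over its 6 probe sets, within the range of the unrelated tissue markers or under it, while the later salvage genes ADI1, ENOPH1, APIP and MRI1 were all measured. ARG2, the mitochondrial arginase that makes ornithine, stood at 5.09 on the siKMO array and 6.44 on the siCon array with its brighter probe set and at 5.44 and 5.62 on the same arrays with the other, so its probe sets disagreed on the size of the difference. AGMAT, annotated as agmatinase, stood at 5.92 on the siKMO array and 4.76 on the siCon array, and its other probe sets differed by 0.64 and 0.22. DOHH, the second enzyme of hypusine synthesis, was at 4.92 on the siKMO array and 4.62 on the siCon array.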
